A study of Mus musculus with 18 samples.

Results

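The acute response of the artery was read from 8 of the 18 libraries of the time course, 4 labelled day 0 and 4 labelled day 7, which were chosen by day alone and compared over every gene of the raw count table. All mice were wild type and of the C57/BL6 strain, and the study's methods describe male animals, 11 weeks old at surgery, in which a wire was passed through the left carotid artery while the right carotid served as control. Day 0 stands for the vessel before injury, and whether these libraries came from the uninjured side of mice injured later is not stated in the sources used here. Tissue within and including the outer elastic lamina, that is media and neointima, was cut from the carotid by laser, up to 70 sections were combined per sample, and vessels with thrombosis had been discarded. Only the 3′ ends of polyadenylated RNA were sequenced, and 35655 genes were counted, of which 10312 passed the filter on low counts. The 8 libraries compared carry 8 different numbers in their labels. However, the numbers of 3 day 0 libraries (replicates 2, 3 and 4) are also carried by 3 day 21 libraries, which entered the fit, and what the numbers stand for is not stated. The fit had no term for these shared numbers, and with the day 21 libraries left out 992 genes were higher and 830 lower. The labels do not say that the libraries came from separate animals, and p-values then measure only the spread between these samples, which may be technical.

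Wire injury strips the endothelium and stretches the media. In such wounds the first days are known for the arrival of myeloid cells, drawn by chemokines and complement fragments, whereas medial smooth muscle cells lose contractile proteins, enter the cell cycle and move inward. Smooth muscle, macrophage and matrix genes carry much of this contrast, and their counts are given here only as a base. The description is therefore of the other gene groups: how leukocytes move, signal and sense, how cells divide and store iron and lipid, and which receptors, channels, clocks and transcription factors of the resting media were lower.

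Library totals ran from 689455 to 869924 counts on day 0 and from 484259 to 676624 counts on day 7, while 10792 to 12154 and 12254 to 13091 genes had a count. Values are given as CPM, that is counts relative to the library total, scaled between libraries by the trimmed mean of M values over the tested genes, and were not divided by gene length because the reads are tags of 3′ ends. Defining contractile genes of an artery were present on day 0, where the 44 tested members summed to 90066, 82693, 89309.5 and 84893 CPM. On day 7 the same genes summed to 13043, 9186, 11839 and 23227 CPM, and the count was 1 higher and 39 lower among 44 tested of 46 listed (median log2 fold change -2.41), against 11.3% of all tested genes called higher and 8.53% called lower. For 34 tested macrophage genes the sums were 3314 to 4596 CPM on day 0 and 17335 to 24647 CPM on day 7, and the count was 32 higher and 0 lower among 34 tested of 35 listed (median log2 fold change 4.28), while for matrix genes the count was 33 higher and 13 lower among 83 tested of 84 listed (median log2 fold change 0.37). In bulk tissue, fewer cells of a type and less RNA per cell cannot be told apart. Day 7 replicate 4 held the highest contractile sum of its group and the lowest values of several inflammatory genes described below, and values without any 1 library are given wherever its absence moved a called value by more than 1.5 times.

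Markers of other cells changed with the injury as well. Neutrophil markers summed to 26.8 to 101 CPM on day 0 and 279 to 1501 CPM on day 7, yet 7 of 18 of them, the surface marker Ly6g and the granule genes Camp, Ltf, Elane, Mpo, Prtn3 and Ngp, had no count on day 7. Endothelial markers summed to 1439.7 to 1918.3 CPM on day 0 and to 1419, 1569, 3817 and 3703 CPM on day 7, with 10 of 22 tested members higher and 2 lower. Only replicates 3 and 4 of day 7 had sums above the day 0 range. Among adventitial fibroblast markers, 10 of 17 tested members were lower and 2 higher. Haemoglobin and other erythroid genes summed to 95.3 to 396 CPM on day 0 and 194 to 2444 CPM on day 7, the lower end of day 7 being replicate 1. Skeletal muscle markers had no count on day 0 in the 3 members tested of 14 listed, which summed to 8.90, 84.5, 19.9 and 4.84 CPM on day 7. Of 15 listed chondrocyte and thyroid markers 4 were tested and 3 were higher, yet 9 of the 15 had no count on day 7. Mast cell proteases and both Fc epsilon receptor markers on the mast cell list had no count on day 7, which left 7 of 9 mast cell markers undetected, while both tested members were higher and the list summed to 0 to 3.94 CPM on day 0 and 34.1 to 108 CPM on day 7. Dendritic, T and NK and B cell lists had 5 tested members of 12 listed, 3 of 23 and 3 of 14, of which 4, 2 and 1 were higher. In each of these lists the counts of members not tested moved in both directions. Myelin and adipocyte lists had 7 tested members of 17 listed and 4 of 12, with 1 higher in the former and 2 lower in the latter. Of 11 listed platelet markers 4 were tested, and 1 was higher and 0 lower. Their median log2 fold change was -0.02, though 0.021 under scaling by total counts. The part of these cells in the gene groups below was not tested.

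**Figure D1:**
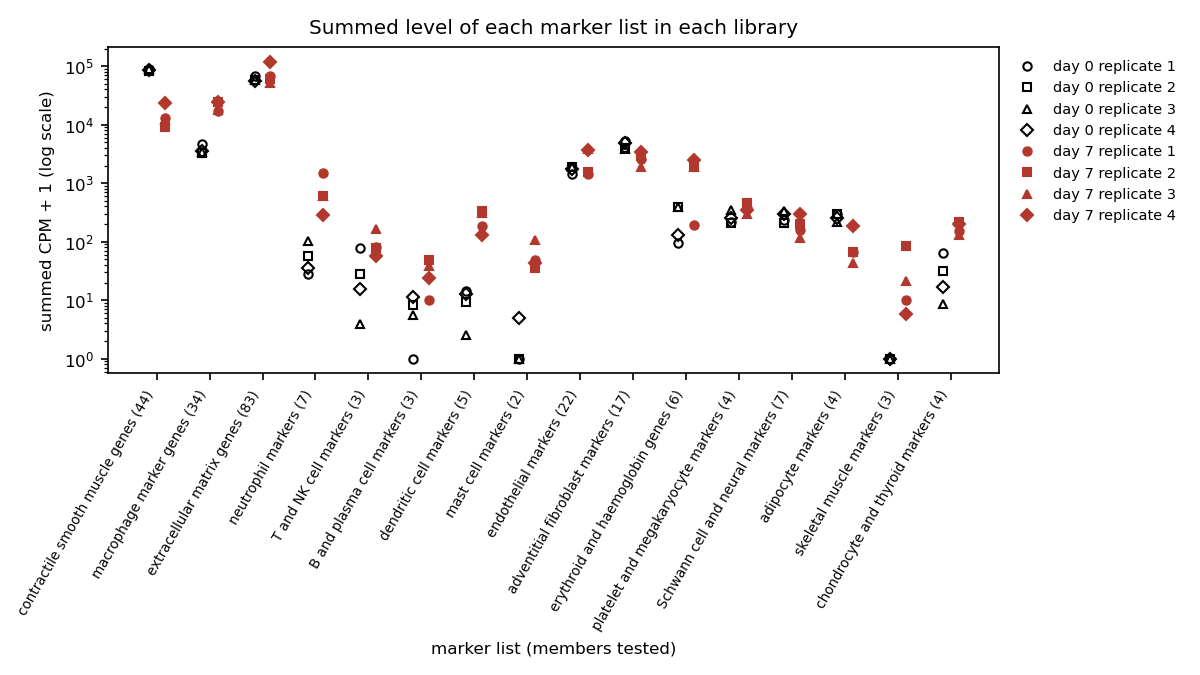
Summed level of each marker list in the 4 day 0 libraries (open symbols) and the 4 day 7 libraries (filled symbols), as CPM + 1 on a log axis, with the number of members tested in parentheses. Contractile genes fell from 82693 CPM or more to 23227 CPM or less, and macrophage genes lay at 3314 to 4596 CPM on day 0 and 17335 to 24647 CPM on day 7.

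Between day 0 and day 7, 2041 of 10312 genes (19.8%) passed an adjusted p of 0.05 in edgeR's quasi-likelihood test, 1161 of them higher on day 7 (11.3%) and 880 lower (8.53%). Among called genes the rises had the larger fitted log2 fold changes. The median log2 fold change was 2.75 among genes called higher and -1.84 among genes called lower, against 0.07 over all genes tested, and at least 4-fold changes numbered 738 and 391. In 990 of the higher and 760 of the lower genes the 2 groups of libraries did not overlap. Over all 10312 genes tested, called or not, the day 7 libraries lay all above day 0 in 1399 and all below in 1001. No read was counted on day 0 for 134 of the higher genes, whereas 9 of the lower genes had none on day 7. The medians and 4-fold counts above include these genes at fitted fold changes that the counts do not fix. For such genes only a bound is given, computed against 3 counts over the whole group, which is 1.02 CPM on day 0 and 1.34 CPM on day 7. Bounds and the intervals given with ratios of very low counts cover counting error only.

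Outside the 3 lists named above, the gene with the smallest p among those that rose was Ftl1, the light chain of the iron store ferritin (chr7:45107367-45109308, minus strand in GRCm39), with 331, 418, 297 and 303 CPM on day 0 and 2201, 2144, 1714 and 4115 CPM on day 7. Every day 7 library lay above 4 times the highest day 0 level, and the test gave a log2 fold change of 2.91 ± 0.27 (SE, adjusted p = 9.5e-08). Cxcl12, the chemokine ligand of CXCR4, stood at 101, 65.7, 68.6 and 66.9 CPM on day 0 and 1652, 1517, 399 and 747 CPM on day 7, and its rise was seen in all 4 libraries although replicates 3 and 4 were lower than the other two, with a log2 fold change of 3.83 ± 0.36 (SE, adjusted p = 1.0e-07). Vcam1, the adhesion molecule that leukocyte integrin alpha 4 beta 1 binds, measured 106, 81.3, 154 and 148 CPM on day 0 and 1143, 1206, 562 and 668 CPM on day 7. For Vcam1 this was a log2 fold change of 2.87 ± 0.31 (SE, adjusted p = 4.4e-07). Sirpa, an inhibitory receptor of myeloid cells for CD47, gave 35.7, 37.1, 35.8 and 11.8 CPM on day 0 and 278, 458, 369 and 253 CPM on day 7. For Sirpa this was a log2 fold change of 3.49 ± 0.34 (SE, adjusted p = 1.2e-07). Its ligand gene Cd47 had 53.6 to 124 CPM on day 0 and 163 to 210.2 CPM on day 7 and did not pass the test (adjusted p = 0.088, log2 fold change 0.93).

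Further leading rises ranged from genes with no count on day 0 to abundant ones. Clec4n, which encodes the fungal pattern receptor Dectin-2, had no count on day 0 and a rise of at least 266-fold (adjusted p = 6.1e-07), or at least 166-fold with day 7 replicate 4 left out, with 179.8, 212, 116 and 576 CPM in the day 7 libraries. Ms4a6d, a membrane protein of monocytes and macrophages, had 1 count on day 0 and 420 on day 7, a count ratio of 552 with a 95% counting interval of 98.5 to 21841 (adjusted p = 1.7e-07), or at least 131-fold with day 0 replicate 2 left out, which held the counts of that group. Coro1a, the coronin of leukocytes, had 0 to 13.4 CPM on day 0 and 209.9 to 297 CPM on day 7. For Coro1a this was a log2 fold change of 5.37 ± 0.51 (SE, adjusted p = 9.5e-08) or 6.0 with day 0 replicate 1 left out. Cotl1, a filament-binding partner of coactosin type, ranged over 10.5 to 50.6 CPM on day 0 and 573 to 1614 CPM on day 7. For Cotl1 this was a log2 fold change of 5.69 ± 0.55 (SE, adjusted p = 1.2e-07) or 6.40 with day 0 replicate 1 left out. For the leukocyte surface peptide Cd52 the log2 fold change was 5.81 (adjusted p = 1.2e-07) or 7.16 with day 0 replicate 1 left out, and for the complement C3a receptor C3ar1 it was 5.53 (adjusted p = 1.1e-06) or 6.49 with day 0 replicate 1 left out. Sdc3, a syndecan that carries heparan sulphate, had 14.9 to 68.1 CPM on day 0 and 263 to 525 CPM on day 7 (adjusted p = 8.7e-07, log2 fold change 2.87). Basp1, a membrane-bound protein of growth cones, had 2.62 to 11.95 CPM on day 0 and 117 to 187 CPM on day 7 (adjusted p = 7.6e-07, log2 fold change 4.54), or 5.17 with day 0 replicate 2 left out. Hmga1b, a chromatin architectural protein, had 42.0 to 115 CPM on day 0 and 457 to 828 CPM on day 7 (adjusted p = 5.1e-07, log2 fold change 3.39). Hmga1b shares most of its sequence with Hmga1, and the division of reads between the pair is uncertain.

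Leading falls included several genes of striated-type cytoskeleton and membrane organisation that the contractile list did not hold. Smarcd3, the muscle and heart subunit BAF60C of SWI/SNF chromatin remodelling complexes (chr5:24795816-24829409, minus strand in GRCm39), had the smallest p of all genes called lower, with 314, 369, 295 and 281 CPM on day 0 and 44.5, 30.5, 25.9 and 40.4 CPM on day 7. For Smarcd3 this was a log2 fold change of -3.14 ± 0.26 (SE, adjusted p = 1.3e-08). All 4 day 7 libraries lay between 25.9 and 44.5 CPM, far under the lowest day 0 value. Rock1, a kinase that keeps myosin light chains phosphorylated, measured 357, 353, 399 and 500.0 CPM on day 0 and 46.3, 53.9, 57.8 and 20.99 CPM on day 7. For Rock1 this was a log2 fold change of -3.17 ± 0.35 (SE, adjusted p = 7.7e-07). Dstn, an actin-depolymerising protein with the highest CPM of this set, measured 4219, 4110.0, 4492 and 4617 CPM on day 0 and 707, 388, 478 and 864 CPM on day 7. For Dstn this was a log2 fold change of -2.84 ± 0.34 (SE, adjusted p = 1.7e-06). Myom1 (M-band myomesin), Ldb3 (a Z-disc PDZ-LIM protein), Jph2 (junctophilin, which tethers sarcoplasmic reticulum to the plasma membrane) and Mylk4 (a myosin light chain kinase) had log2 fold changes of -3.59, -3.52, -3.28 and -4.64 in that order. Fbxl22, an F-box protein of the Z-disc, had 141, 204, 227 and 256 CPM on day 0 and 7.12, 1.80, 3.99 and 9.69 CPM on day 7, which left 13 counts on day 7 against 613 on day 0. Inpp5a, which ends inositol trisphosphate signals, had 255 to 488 CPM on day 0 and 57.5 to 67.8 CPM on day 7 (adjusted p = 1.2e-07, log2 fold change -2.58), and the transforming growth factor beta trap Vasn had 432 to 531 CPM on day 0 and 69.8 to 111 CPM on day 7 (adjusted p = 1.7e-06, log2 fold change -2.34). Pbxip1, Plekhg3, Ncam1, Cys1 and Ecm2 completed the set, with log2 fold changes of -2.76, -3.34, -2.72, -3.77 and -3.43. In all 15 leading falls every day 7 library lay under every day 0 library, which was a condition of the naming rule.

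**Figure D2:**
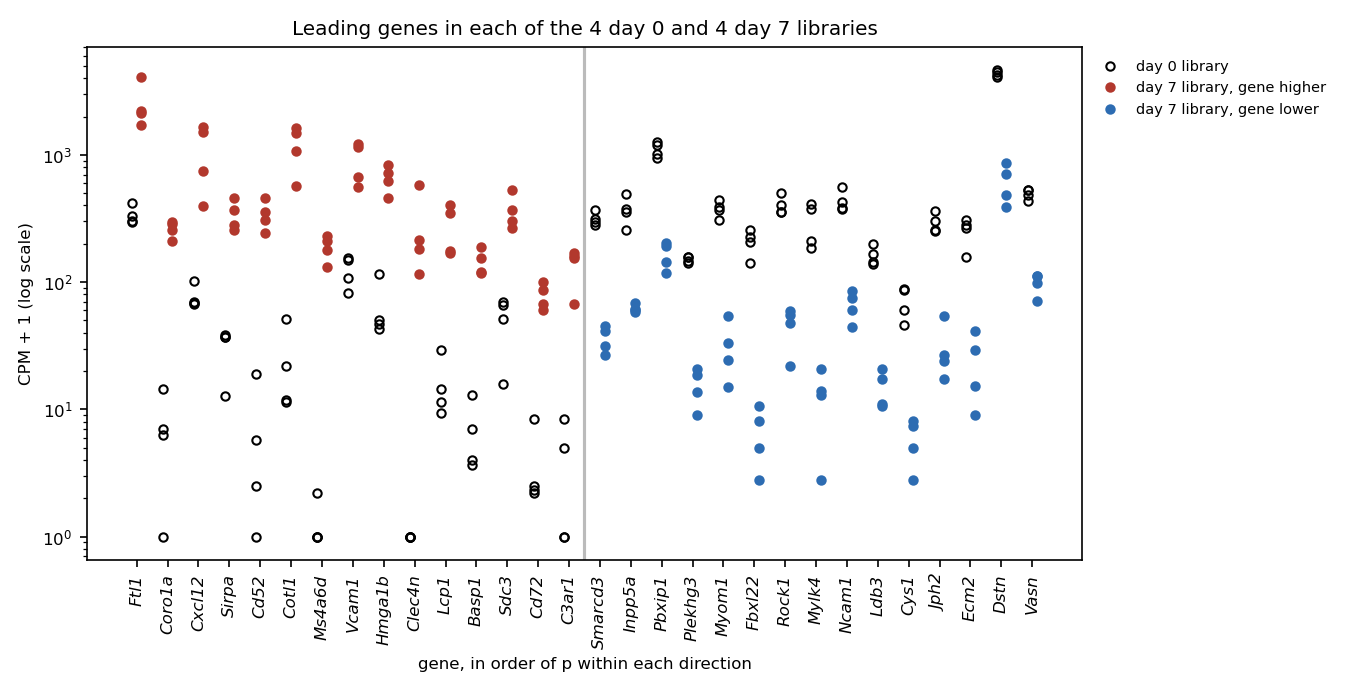
CPM + 1, on a log axis, of the 15 leading genes per direction, ranked by p, in each of the 4 day 0 libraries (open circles) and 4 day 7 libraries (filled circles, red for higher and blue for lower genes). Clec4n had no count on day 0 and Dstn, the falling gene with the highest CPM, had 4110.0 to 4617 CPM on day 0 and 388 to 864 CPM on day 7.

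**Figure D3:**
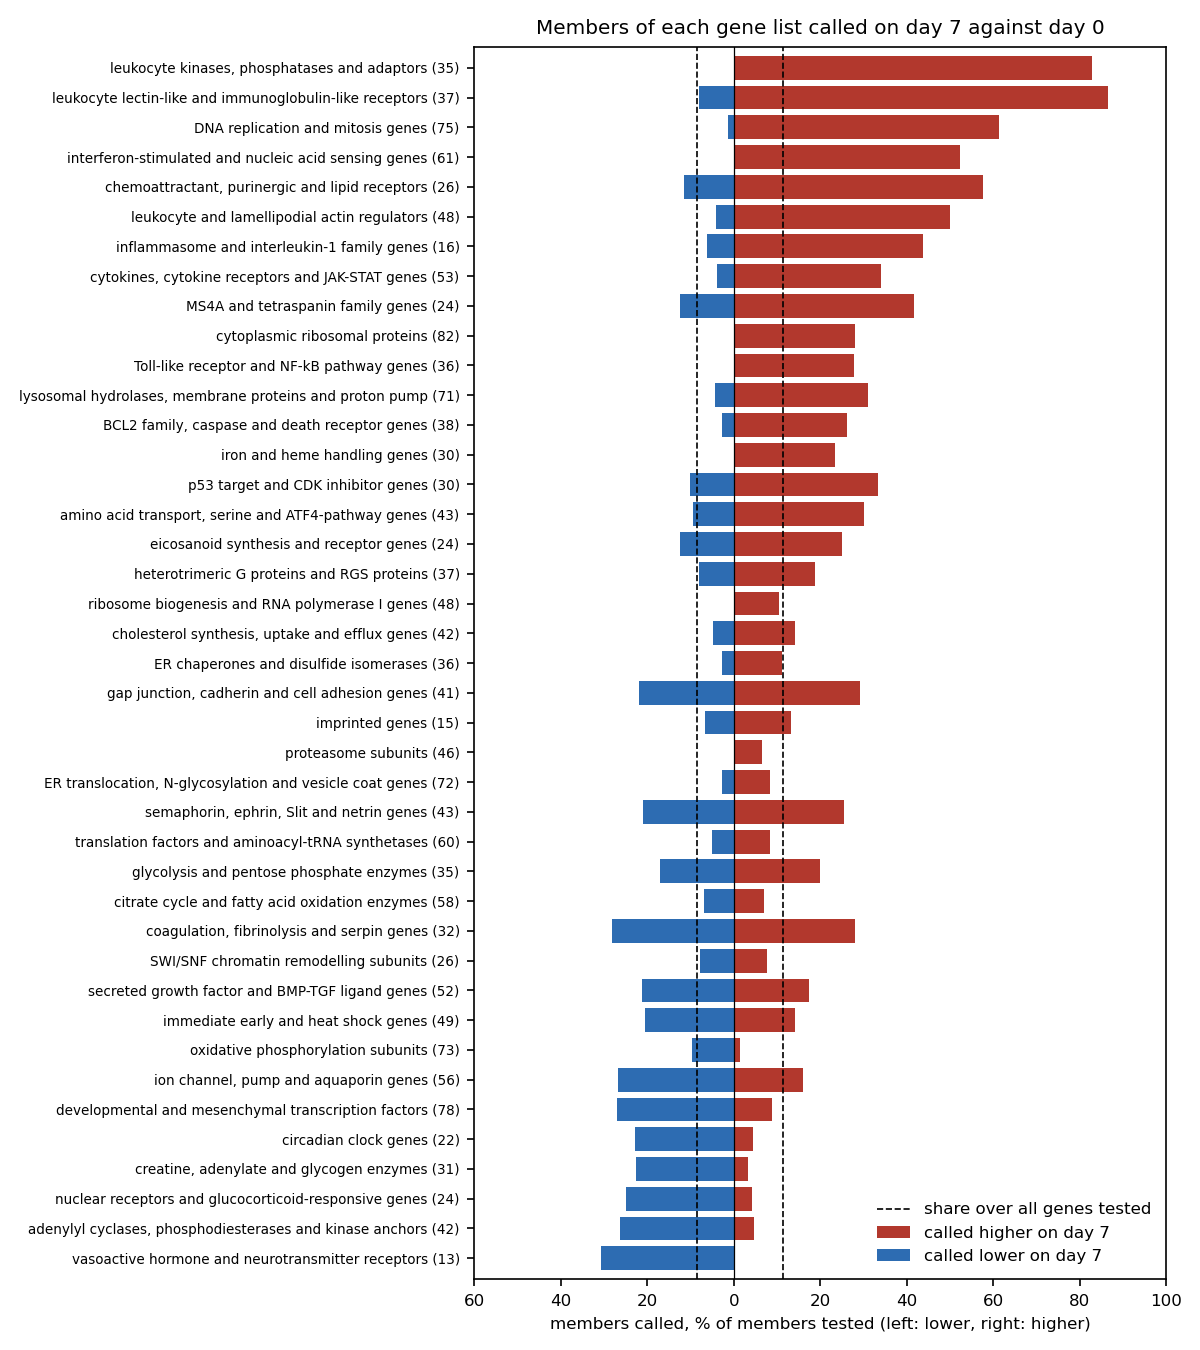
Share of tested members called higher (red, to the right) and lower (blue, to the left) on day 7 for each functional gene list, in percent, with the number tested in parentheses and dashed lines at the shares over all genes (11.3% and 8.53%). Lectin-like receptors, with 32 of 37 members higher, and leukocyte kinases, with 29 of 35, were at the top, and vasoactive receptors, with 4 of 13 members lower and none higher, were at the bottom.

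Genes of leukocyte-type actin filaments and of their branching machinery rose in many cases. Of 50 listed genes 48 were tested, and 24 of these were higher and 2 lower, with a median log2 fold change of 0.87. Lcp1, the bundling protein L-plastin of blood cells, measured 13.4, 8.37, 28.3 and 10.5 CPM on day 0 and 351, 403, 175 and 169.5 CPM on day 7. For Lcp1 this was a log2 fold change of 4.19 ± 0.46 (SE, adjusted p = 7.6e-07). Nckap1l, the haematopoietic subunit of the WAVE complex that activates Arp2/3, had 0 to 8.37 CPM on day 0 and 101 to 134 CPM on day 7 (adjusted p = 2.1e-06, log2 fold change 4.96), or 5.84 with day 0 replicate 2 left out. Both tested members called lower were the non-haematopoietic relatives of these genes. Pls3, or T-plastin, had 919, 1161, 1248 and 1394 CPM on day 0 and 438, 291, 199 and 710.3 CPM on day 7 (adjusted p = 9.2e-04, log2 fold change -1.52). Nckap1 had 89.4 to 188 CPM on day 0 and 39.9 to 73.0 CPM on day 7 (adjusted p = 0.0085, log2 fold change -1.17). Tmsb4x, which holds actin monomers and had the highest CPM of the list, had 8966 to 11654 CPM on day 0 and 7707 to 12825 CPM on day 7, a difference of -0.16 that did not pass the test (adjusted p = 0.65).

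Receptors by which myeloid cells recognise ligands gave the highest share of risen genes among tested members of any functional list, at 86.5% against 11.3% of all tested genes. Members that did not pass the low-count filter are outside this share, and 13 of the tested ones had no count on day 0. The order of the lists therefore depends on the filter. Of 58 listed genes 37 were tested, and 32 of these were higher and 3 lower, with a median log2 fold change of 4.64, or 3.88 with the 13 members without a count in 1 group set to their bound. Several of these receptors signal through the same kinases, and for leukocyte kinases, phosphatases and adaptors the count was 29 higher and 0 lower among 35 tested of 47 listed (median log2 fold change 3.61, or 3.58 with the 8 members without a count in 1 group set to their bound). Fyb, the adaptor that links immune receptors to integrins, had no count on day 0. It reached 83.7, 86.3, 73.8 and 66.2 CPM on day 7, which is a rise of at least 76.0-fold (adjusted p = 4.6e-06). The kinase Lyn and the phosphatase Ptpn6, which work one after the other at inhibitory receptors, had 1 and 3 counts on day 0 against 160 and 210 on day 7. For Lyn this was a count ratio of 210.2 with a 95% counting interval of 37.2 to 8352 (adjusted p = 4.2e-06), or at least 52.7-fold with day 0 replicate 4 left out, which held the counts of that group, and for Ptpn6 a count ratio of 91.9 with a 95% counting interval of 31.0 to 449 (adjusted p = 1.8e-05), or at least 68.3-fold with day 0 replicate 4 left out, which held the counts of that group. The receptor list also held falls. Clec3b, the plasminogen-binding tetranectin, had 148 to 453 CPM on day 0 and 3.56 to 46.8 CPM on day 7 (adjusted p = 1.2e-05, log2 fold change -3.70), or -4.95 with day 7 replicate 4 left out. Cd200, the ligand of an inhibitory receptor on macrophages, had 325 to 474 CPM on day 0 and 41.9 to 241 CPM on day 7 (adjusted p = 0.002, log2 fold change -1.45). Ptprj and Dok1 were the kinase-list members not called with the highest CPM, at -0.72 (adjusted p = 0.15) and 0.44 (adjusted p = 0.54).

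The promoters of the receptor genes were read for GAGGAAGT, a binding motif of the myeloid ETS factor PU.1, on both strands of the 300 bases around each RefSeq start (250 before and 50 after). Of 25 receptor genes that rose and had exactly 1 promoter in the table, 7 held it (28%), against 3.17% of the 6468 promoters of all tested genes, 7.42% of those of all genes called higher and 1.79% of those of genes called lower. Among kinase genes that rose the count was 2 of 15 (13.3%), and among Ms4a and tetraspanin genes that rose 0 of 7. A match describes letters in a window and is not evidence of binding. Cd72, a B cell and macrophage receptor with inhibitory motifs, and Havcr2, which encodes TIM-3, are shown as 2 of the 7, with the 250 bases before the start in GRCm38.p6 and the motif or its reverse complement in capitals.
Cd72, chr4:43454627-43454876, minus strand: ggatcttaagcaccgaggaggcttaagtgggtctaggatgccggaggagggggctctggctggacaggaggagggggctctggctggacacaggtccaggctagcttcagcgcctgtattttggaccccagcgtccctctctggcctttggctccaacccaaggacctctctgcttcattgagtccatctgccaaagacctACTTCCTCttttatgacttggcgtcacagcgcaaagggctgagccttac
Havcr2, chr11:46454681-46454930, plus strand: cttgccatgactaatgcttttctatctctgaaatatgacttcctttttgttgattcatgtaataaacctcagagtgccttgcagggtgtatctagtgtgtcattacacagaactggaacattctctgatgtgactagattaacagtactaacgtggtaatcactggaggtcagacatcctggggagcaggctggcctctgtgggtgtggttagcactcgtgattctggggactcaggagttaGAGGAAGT
Cd72 had 7.44, 1.20, 1.49 and 1.31 CPM on day 0 and 65.9, 98.8, 59.8 and 85.6 CPM on day 7. For Cd72 this was a log2 fold change of 4.72 ± 0.54 (SE, adjusted p = 1.0e-06) or 5.68 with day 0 replicate 1 left out. Havcr2, named here for its promoter after its values were seen, was not counted on day 0 and reached 26.7, 35.9, 17.9 and 33.9 CPM on day 7, a rise of at least 28.1-fold (adjusted p = 1.3e-04). In Cd72 the motif began 49 bases before the start, and in Havcr2 it ended at the base before the start.

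The Ms4a genes, which encode membrane proteins with 4 passes often found beside Fc receptors, rose in 6 of 7 tested members, against 11.3% of all tested genes. Several other listed Ms4a genes did not pass the low-count filter and were not tested. Within the wider list of Ms4a and tetraspanin genes the count was 10 higher and 3 lower among 24 tested of 36 listed (median log2 fold change 0.58). Tspan14, which directs the protease ADAM10, rose with 5.25 to 19.4 CPM on day 0 and 57.0 to 98.5 CPM on day 7 (adjusted p = 9.5e-04, log2 fold change 2.33), and Ms4a6c with 2.62 to 40.2 CPM on day 0 and 61.3 to 131 CPM on day 7 (adjusted p = 0.0015, log2 fold change 2.86), or 4.12 with day 0 replicate 3 left out. Tspan2 fell, with 201, 264, 307 and 279.5 CPM on day 0 and 60.5, 27.0, 124 and 98.5 CPM on day 7 (adjusted p = 0.002, log2 fold change -1.76). The abundant tetraspanin Cd63 had 526 to 835 CPM on day 0 and 779 to 985 CPM on day 7 and did not pass the test (adjusted p = 0.15, log2 fold change 0.42). Cd9, a second tetraspanin, had 896 to 1025 CPM on day 0 and 392 to 1006 CPM on day 7 and did not pass either (adjusted p = 0.083, log2 fold change -0.63).

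Chemokine genes rose together, with a wide spread between the day 7 libraries. Symbols that share a stem were surveyed for every stem with at least 6 tested genes, 267 in all, and families with 60% or more of their tested members called in 1 direction are named, with members shown as examples after their values were seen. Such families numbered 11: Ccl, Clec, Csf, Cxcl, Ifi, Ly, Ms4a and Prdx among rises and Hspb, Igfbp and Pdlim among falls. Clec had 12 of 15 genes higher and 2 lower, and Ly had 4 of 6 higher. All 7 tested Cxcl genes were higher, and Ccl had 8 of 11 tested, the remaining 3 being Ccl4, Ccl27a and a gene with no count in either group. Family counts cover only genes that passed the low-count filter. Over all genes tested, 11.3% were called higher and 8.53% lower. Ccl2, which recruits CCR2-positive monocytes, had no count on day 0 and 545, 415, 297 and 9.69 CPM on day 7, a rise of at least 310.5-fold (adjusted p = 1.7e-05). Ccl7, a second ligand of the same receptor, had no count on day 0 and 290.2, 243, 51.8 and 6.46 CPM on day 7, a rise of at least 145-fold (adjusted p = 7.2e-04). Both genes were thus high in replicates 1 and 2 and lowest in replicate 4. Cxcl5, a neutrophil attractant, showed the same order with 223 and 243 CPM in replicates 1 and 2 and 9.97 and 9.69 CPM in replicates 3 and 4, against 3 counts on day 0, a count ratio of 119 with a 95% counting interval of 40.2 to 579 (adjusted p = 0.001). Cxcl10, induced by interferon gamma, had 146, 187, 71.8 and 6.46 CPM on day 7 and 1 count on day 0, a count ratio of 297 with a 95% counting interval of 52.7 to 11776 (adjusted p = 0.0019), or at least 74.7-fold with day 0 replicate 4 left out, which held the counts of that group.

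Ccl6 and Cxcl16 varied less. Ccl6, a chemokine of myeloid cells in mice, had 1.49, 13.2, 0 and 9.19 CPM on day 0 and 379, 273, 191 and 88.8 CPM on day 7. For Ccl6 this was a log2 fold change of 5.17 ± 0.66 (SE, adjusted p = 3.5e-06) or 5.88 with day 0 replicate 2 left out. Cxcl16, a membrane-bound ligand that also takes up oxidised lipid, had 19.4, 10.8, 26.8 and 24.9 CPM on day 0 and 194, 226, 112 and 123 CPM on day 7. For Cxcl16 this was a log2 fold change of 3.0 ± 0.36 (SE, adjusted p = 1.6e-06), and no day 7 library was below 112 CPM. Cxcl1, a neutrophil attractant, rose with 0 to 7.45 CPM on day 0 and 43.6 to 215 CPM on day 7 (adjusted p = 6.1e-04, log2 fold change 4.84), or 5.46 with day 0 replicate 3 left out and 4.14 with day 7 replicate 1 left out. Ccl9 rose with 0 to 46.2 CPM on day 0 and 121 to 268 CPM on day 7 (adjusted p = 6.5e-04, log2 fold change 3.56), or 4.77 with day 0 replicate 1 left out. Cxcl12 was the one chemokine of this family with more than 60 CPM in every day 0 library.

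**Figure D4:**
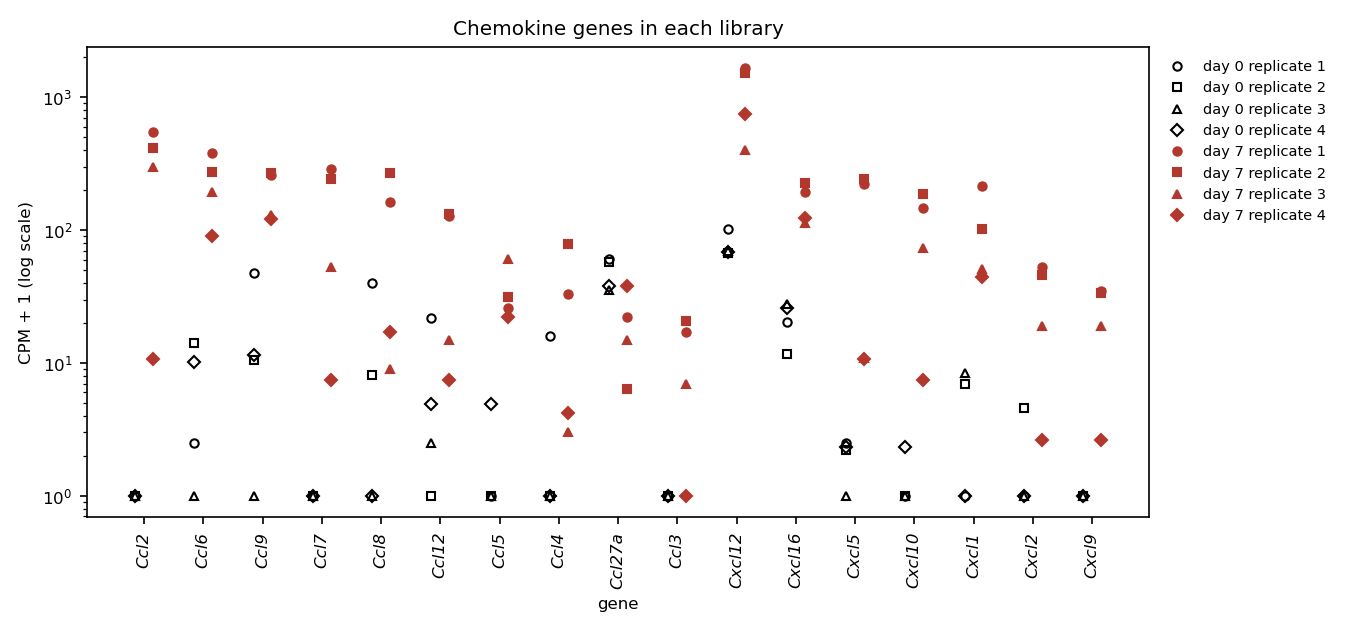
CPM + 1, on a log axis, of each Ccl and Cxcl gene with a count in either group, with a symbol shape per replicate, open for day 0 and filled for day 7. Ccl2, Ccl7, Cxcl5 and Cxcl10 lay at 146 CPM or more in day 7 replicates 1 and 2 and at 9.69 CPM or less in replicate 4 (diamonds), whereas Cxcl16 lay between 112 and 226 CPM in all 4.

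On the receptor side, 15 of the 26 members tested (49 listed) were higher and 3 were lower, with a median log2 fold change of 1.87. C5ar1, which senses complement C5a, had 1 count on day 0 and 189 on day 7, a count ratio of 248 with a 95% counting interval of 44.0 to 9857 (adjusted p = 9.1e-06), or at least 61.9-fold with day 0 replicate 4 left out, which held the counts of that group. Ackr3, the scavenger receptor that removes Cxcl12, fell with 138, 78.9, 173 and 167 CPM on day 0 and 49.9, 55.7, 49.8 and 67.8 CPM on day 7 (adjusted p = 0.0062, log2 fold change -1.31), whereas its ligand rose as given above. S1pr1, a sphingosine 1-phosphate receptor, had 0 to 50.7 CPM on day 0 and 76.6 to 118 CPM on day 7 without overlap of groups, yet did not pass the test (adjusted p = 0.076, log2 fold change 1.73).

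Cytokine receptors showed more rises than falls, and 18 of the 53 members tested (67 listed) were higher and 2 were lower, with a median log2 fold change of 1.20. Il10ra, the ligand-binding chain of the interleukin-10 receptor, and Csf3r, the receptor of granulocyte colony-stimulating factor, had no count on day 0. On day 7 Il10ra reached 58.8, 66.5, 75.8 and 27.4 CPM, a rise of at least 56.0-fold (adjusted p = 5.6e-06). Csf3r reached 39.2, 43.1, 45.8 and 32.3 CPM, a rise of at least 39.3-fold (adjusted p = 4.9e-05). The Csf family had 5 of 6 tested genes higher. Il4ra, a chain shared by the interleukin-4 and interleukin-13 receptors, had 2.98, 16.7, 20.9 and 18.4 CPM on day 0 and 359.7, 293, 146 and 142 CPM on day 7. For Il4ra this was a log2 fold change of 3.97 ± 0.58 (SE, adjusted p = 2.3e-05). Il11ra1, the interleukin-11 receptor, had the higher level in the resting wall, with 530.0, 619, 505 and 455 CPM on day 0 and 196, 228, 119.6 and 274 CPM on day 7, and fell (adjusted p = 2.3e-04, log2 fold change -1.364). Il6st, the shared gp130 chain, had 55.1 to 197 CPM on day 0 and 128 to 246 CPM on day 7 and did not pass the test (adjusted p = 0.47, log2 fold change 0.40).

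Of Toll-like receptor and NF-kB genes fewer moved, and the count was 10 higher and 0 lower among 36 tested of 47 listed (median log2 fold change 0.69). Tnfaip2, which NF-kB induces, rose with 0 to 16.4 CPM on day 0 and 63.8 to 113 CPM on day 7 (adjusted p = 3.7e-04, log2 fold change 3.24), as did the NF-kB cofactor Bcl3 with 1.49 to 13.4 CPM on day 0 and 35.9 to 122 CPM on day 7 (adjusted p = 0.0021, log2 fold change 3.04). The inhibitor gene Nfkbia had 98.3 to 227 CPM on day 0 and 96.9 to 241 CPM on day 7 (adjusted p = 0.6, log2 fold change 0.29) and the kinase gene Irak1 had 108 to 207 CPM on day 0 and 139 to 305 CPM on day 7 (adjusted p = 0.17, log2 fold change 0.52), and neither passed the test. For inflammasome and interleukin-1 genes the count was 7 higher and 1 lower among 16 tested of 34 listed (median log2 fold change 2.40). Il1b itself had no count on day 0 and 283, 235, 102 and 4.84 CPM on day 7, a rise of at least 153-fold (adjusted p = 3.6e-04), again with its lowest value in replicate 4. Txnip, which binds and inhibits thioredoxin, was the member that fell, with 308, 451, 307 and 402 CPM on day 0 and 178, 138, 189 and 140.5 CPM on day 7 (adjusted p = 9.8e-04, log2 fold change -1.18). The letters GGG and TTTCC with any 2 bases between, an NF-kB site, were in 0 of 8 promoters of pathway genes that rose, in 6 of 14 of those not called (42.9%) and in 1.61% of all.

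The interferon-stimulated genes called were all higher on day 7. Of 69 listed genes 61 were tested, and 32 of these were higher and 0 lower, with a median log2 fold change of 2.46. Isg15, the ubiquitin-like protein induced by type I interferon, had 0, 5.98, 5.96 and 1.31 CPM on day 0 and 71.2, 84.5, 112 and 33.9 CPM on day 7. For Isg15 this was a log2 fold change of 4.40 ± 0.70 (SE, adjusted p = 5.5e-05). Irf5, a factor that drives inflammatory cytokines, measured 4.47, 0, 7.45 and 3.94 CPM on day 0 and 65.9, 77.3, 59.8 and 88.8 CPM on day 7. For Irf5 this was a log2 fold change of 4.19 ± 0.62 (SE, adjusted p = 2.6e-05). Lgals3bp, a secreted scavenger-receptor glycoprotein, had a log2 fold change of 2.96 (adjusted p = 1.4e-05). In the Ifi family, 7 of 11 tested genes were higher. Of the members not called, those with the highest CPM were Ifi27, with 243 to 465 CPM on day 0 and 119 to 405 CPM on day 7 (adjusted p = 0.22, log2 fold change -0.58), and Ifitm2, with 161 to 222 CPM on day 0 and 123 to 291 CPM on day 7 (adjusted p = 0.61, log2 fold change 0.26). Beside them, 3 of 46 tested proteasome subunits rose, a share under that over all genes, and all 3 were catalytic subunits of the interferon-inducible immunoproteasome. Psmb8 had 7.44, 25.1, 50.7 and 20.997 CPM on day 0 and 160.3, 194, 134 and 115 CPM on day 7 (adjusted p = 0.0012, log2 fold change 2.53). Psmb10 had 26.8, 66.9, 19.4 and 39.4 CPM on day 0 and 137, 129, 112 and 74.3 CPM on day 7 (adjusted p = 0.0062, log2 fold change 1.55). Psmb9 had 1.49 to 27.5 CPM on day 0 and 31.9 to 55.7 CPM on day 7 (adjusted p = 0.033, log2 fold change 1.9). The call for Psmb9 was lost without any 1 of day 0 replicates 1, 3 and 4 and day 7 replicates 1 and 2, with log2 fold changes of 1.55 to 1.84 and adjusted p-values of 0.075 to 0.091, and without day 0 replicate 2 the log2 fold change was 2.75. Psmb1, a subunit of the constitutive particle, had 277 to 404 CPM on day 0 and 354 to 634 CPM on day 7 and did not pass (adjusted p = 0.31, log2 fold change 0.37).

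Copies of GAAA set apart by any 2 bases, the core of the interferon-stimulated response element, were found in 12 of 23 promoters of list members that rose (52.2%) and in 10 of 17 of those not called (58.8%). All tested genes held the pair in 3.11% of promoters, genes called higher in 5.94% and genes called lower in 1.19%. Isg15 and Irgm1, an immunity-related GTPase, are shown as risen genes with overlapping copies, in capitals, in the 250 bases before the start (GRCm38.p6).
Isg15, chr4:156200819-156201068, minus strand: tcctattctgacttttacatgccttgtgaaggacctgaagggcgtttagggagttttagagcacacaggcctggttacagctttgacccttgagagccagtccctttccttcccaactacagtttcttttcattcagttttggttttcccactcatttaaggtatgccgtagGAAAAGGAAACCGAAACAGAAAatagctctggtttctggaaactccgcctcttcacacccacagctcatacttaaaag
Irgm1, chr11:48871421-48871670, minus strand: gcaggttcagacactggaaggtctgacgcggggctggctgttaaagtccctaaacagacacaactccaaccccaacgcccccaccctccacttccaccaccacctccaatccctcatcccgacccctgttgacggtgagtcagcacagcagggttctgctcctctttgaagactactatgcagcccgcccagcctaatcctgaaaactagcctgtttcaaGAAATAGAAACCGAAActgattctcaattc
Irgm1, named for its promoter after its values were seen, had 26.8, 15.5, 8.94 and 9.19 CPM on day 0 and 109, 108, 65.8 and 69.4 CPM on day 7. For Irgm1 this was a log2 fold change of 2.53 ± 0.46 (SE, adjusted p = 2.7e-04). In Isg15 the run covers 78 to 57 bases before the start and in Irgm1 30 to 15 bases before it.

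DNA replication and mitosis genes rose in most tested members. Of 101 listed genes 75 were tested, and 46 of these were higher and 1 lower, with a median log2 fold change of 2.32. Their summed level was 2266, 2641, 2959 and 2714 CPM on day 0 and 6779, 6419, 7473 and 4649.5 CPM on day 7. Ube2c, the ubiquitin-conjugating enzyme of the anaphase-promoting complex, had 1.49, 0, 1.49 and 3.94 CPM on day 0 and 89.0, 97.0, 119.6 and 61.3 CPM on day 7. For Ube2c this was a log2 fold change of 5.59 ± 0.70 (SE, adjusted p = 3.2e-06) or 6.33 with day 0 replicate 4 left out. Stmn1, which destabilises microtubules, had 1.49, 4.78, 0 and 3.94 CPM on day 0 and 126, 113, 97.7 and 108 CPM on day 7. For Stmn1 this was a log2 fold change of 5.28 ± 0.69 (SE, adjusted p = 4.6e-06). H2az1, a histone variant, was already present at 40.2 to 125 CPM on day 0 and 271 to 476 CPM on day 7 (adjusted p = 1.9e-05, log2 fold change 2.18). Ccnd1, the D-type cyclin that growth factors induce, measured 22.3, 29.9, 38.8 and 18.4 CPM on day 0 and 217, 232, 536 and 115 CPM on day 7, with replicate 3 the highest, and a log2 fold change of 3.32 ± 0.44 (SE, adjusted p = 5.6e-06). The only member lower was the related cyclin Ccnd2, with 322, 389, 426 and 446 CPM on day 0 and 249, 203, 187 and 195 CPM on day 7 (adjusted p = 0.0065, log2 fold change -0.92). Ccnd3 had 282 to 396 CPM on day 0 and 213 to 359 CPM on day 7 and did not pass (adjusted p = 0.69, log2 fold change -0.16).

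Cell cycle promoters were searched for TTTGAA, the core of the cell cycle homology region bound by DREAM complexes, and for CCAAT, the NF-Y box, on both strands. Of 36 promoters of members that rose, 15 held the former (41.7%) and 28 the latter (77.8%), against 11% and 38.4% of all tested genes. Members not called had them in 7 and 11 of 18 promoters (38.9% and 61.1%). An E2F site, TTTCCCGC, was in 4 of the 36 (11.1%) and in 2.12% of all. The promoters of Ube2c and Cdc20, an activator of the anaphase-promoting complex, are printed as examples that hold both motifs, in capitals, over 250 bases before the start in GRCm38.p6.
Ube2c, chr2:164769679-164769928, plus strand: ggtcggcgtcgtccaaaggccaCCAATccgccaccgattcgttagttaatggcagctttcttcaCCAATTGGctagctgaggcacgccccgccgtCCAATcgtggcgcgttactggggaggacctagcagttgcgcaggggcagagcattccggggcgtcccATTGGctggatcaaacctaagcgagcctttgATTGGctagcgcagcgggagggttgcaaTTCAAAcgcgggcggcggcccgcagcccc
Cdc20, chr4:118437344-118437593, minus strand: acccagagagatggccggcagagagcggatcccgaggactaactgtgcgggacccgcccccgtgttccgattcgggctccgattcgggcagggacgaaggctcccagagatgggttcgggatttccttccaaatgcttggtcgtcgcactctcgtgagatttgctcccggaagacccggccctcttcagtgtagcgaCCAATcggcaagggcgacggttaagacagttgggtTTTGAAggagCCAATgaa
In Ube2c the TTTGAA letters, on the opposite strand, ran from 29 to 24 bases before the start and CCAAT occurred 6 times, 2 of them overlapping. In Cdc20 the corresponding positions were 18 to 13 bases, with 2 CCAAT boxes. Cdc20, named for its promoter after its values were seen, had 0, 13.2, 0 and 11.8 CPM on day 0 and 92.6, 70.1, 93.7 and 32.3 CPM on day 7 (adjusted p = 0.0034, log2 fold change 3.44), or 4.06 with day 0 replicate 2 left out.

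Genes that restrain division, and genes that promote or block cell death, were raised in part. Among p53 targets and cyclin-dependent kinase inhibitors the count was 10 higher and 3 lower among 30 tested of 35 listed (median log2 fold change 0.81). Cdkn2a, the Ink4a and Arf locus, had 2 counts on day 0 and 50 on day 7, a count ratio of 32.8 with a 95% counting interval of 8.63 to 279 (adjusted p = 0.0029). Cdkn1a, which encodes p21, had 41.7, 76.5, 89.4 and 30.2 CPM on day 0 and 126, 84.5, 83.7 and 64.6 CPM on day 7 and did not pass the test (adjusted p = 0.37, log2 fold change 0.59). Perp, a p53 target of desmosomes, fell with 153, 106, 228 and 142 CPM on day 0 and 21.4, 14.4, 35.9 and 24.2 CPM on day 7 (adjusted p = 4.0e-05, log2 fold change -2.71). For BCL2, caspase and death receptor genes the count was 10 higher and 1 lower among 38 tested of 40 listed (median log2 fold change 0.74). Cflar, the inhibitor of caspase-8, had 316, 236, 316 and 226 CPM on day 0 and 573, 613, 674 and 400.4 CPM on day 7 (adjusted p = 0.001, log2 fold change 1.05). Ripk3, the necroptosis kinase, had no count on day 0 and a rise of at least 17.8-fold (adjusted p = 0.002), and Bcl2 fell with 51.2 to 140.1 CPM on day 0 and 20.99 to 35.9 CPM on day 7 (adjusted p = 0.0022, log2 fold change -1.66). Bcl2a1b, an antiapoptotic relative, had no count on day 0 and a rise of at least 32.3-fold (adjusted p = 0.002), with the reservation that its near-identical copies share reads.

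A minority of iron and heme genes rose. Of 38 listed genes 30 were tested, and 7 of these were higher and 0 lower, with a median log2 fold change of 0.71. Beside Ftl1, Hmox1, which breaks heme down to iron, biliverdin and carbon monoxide, had 17.9, 2.39, 4.47 and 1.31 CPM on day 0 and 539.5, 904, 572 and 1661 CPM on day 7. For Hmox1 this was a log2 fold change of 7.16 ± 0.93 (SE, adjusted p = 4.6e-06) or 8.33 with day 0 replicate 1 left out. Slc40a1, the iron exporter ferroportin, had no count on day 0 and 30.3, 62.9, 81.7 and 150.1 CPM on day 7, a rise of at least 79.7-fold (adjusted p = 1.8e-05). Replicate 4 was the highest for all 3 of these genes. Fth1, the heavy chain that partners Ftl1, had 4169, 5139, 4252 and 5227 CPM on day 0 and 5372, 3752, 2117 and 5211 CPM on day 7 and did not pass the test (adjusted p = 0.67, log2 fold change -0.19). Sums of haemoglobin and other erythroid genes lay above the day 0 range in 3 of the 4 day 7 libraries, all but replicate 1, and their part in the iron genes was not tested. Peroxiredoxins, which reduce peroxides, had 4 of 6 tested genes higher, led by Prdx1 with 487, 507, 435 and 311 CPM on day 0 and 1134, 1297, 831 and 1739 CPM on day 7 (adjusted p = 2.0e-04, log2 fold change 1.52) and Prdx6 with 89.7 to 136 CPM on day 0 and 186 to 211 CPM on day 7 (adjusted p = 0.0047, log2 fold change 0.92).

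Lysosomal genes rose more often than they fell. Of 72 listed genes 71 were tested, and 22 of these were higher and 3 lower, with a median log2 fold change of 0.49. Ctsc, the protease that activates granule serine proteases, had 75.9, 28.7, 28.3 and 43.3 CPM on day 0 and 353, 428, 341 and 200.2 CPM on day 7. For Ctsc this was a log2 fold change of 2.91 ± 0.36 (SE, adjusted p = 2.8e-06). Lgmn, or asparaginyl endopeptidase, had 239.7, 198, 149 and 135 CPM on day 0 and 579, 967, 526 and 519.8 CPM on day 7 (adjusted p = 2.4e-05, log2 fold change 1.84). Gusb, beta-glucuronidase, had 22.3 to 77.5 CPM on day 0 and 148 to 241 CPM on day 7 (adjusted p = 5.3e-05, log2 fold change 1.93). Plbd1, a phospholipase B-like enzyme, had no count on day 0 and a rise of at least 105-fold (adjusted p = 4.4e-05). Of the membrane proteins of the organelle, Lamp1 had 714 to 873 CPM on day 0 and 538 to 766 CPM on day 7 (adjusted p = 0.22, log2 fold change -0.39), Laptm4a had 928 to 1069 CPM on day 0 and 604 to 1112 CPM on day 7 (adjusted p = 0.39, log2 fold change -0.28), and neither passed. The letters TCACGTGA of the CLEAR element were in 1 of 13 promoters of lysosomal genes that rose, 5 of 30 of those not called and 2.15% of all.

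Genes of lipid mediators and lipid stores moved both ways. In the eicosanoid list the count was 6 higher and 3 lower among 24 tested of 37 listed (median log2 fold change -0.23, though 0.199 under limma voom). Alox5ap, which presents arachidonate to 5-lipoxygenase, had 47.6, 15.5, 22.4 and 13.1 CPM on day 0 and 223, 169, 173 and 223 CPM on day 7. For Alox5ap this was a log2 fold change of 3.0 ± 0.39 (SE, adjusted p = 4.7e-06). Tbxas1, thromboxane synthase, had no count on day 0 and 21.4, 53.9, 35.9 and 43.6 CPM on day 7, a rise of at least 37.9-fold (adjusted p = 3.9e-05). Ptgis, prostacyclin synthase, was abundant in the resting wall and fell, with 1298, 1142, 1359 and 1315 CPM on day 0 and 465, 374, 217 and 856 CPM on day 7. For Ptgis this was a log2 fold change of -1.42 ± 0.30 (SE, adjusted p = 0.0013). The thromboxane receptor gene Tbxa2r fell as well, with 38.1 to 99.9 CPM on day 0 and 3.59 to 20.99 CPM on day 7 (adjusted p = 0.0084, log2 fold change -2.78), or -3.56 with day 7 replicate 4 left out. Among cholesterol and lipid droplet genes the count was 6 higher and 2 lower among 42 tested of 50 listed (median log2 fold change -0.08, though 0.094 under limma voom). The share higher, 14.3%, was close to the 11.3% over all genes, and the share lower, 4.76%, was under 8.53%. Plin2, the coat protein of lipid droplets, rose with 7.44, 7.17, 8.94 and 17.1 CPM on day 0 and 126, 192, 155 and 166 CPM on day 7. For Plin2 this was a log2 fold change of 3.95 ± 0.47 (SE, adjusted p = 1.7e-06). Lpl, lipoprotein lipase, also rose, with 127, 108, 64.1 and 77.4 CPM on day 0 and 185, 329, 317 and 463 CPM on day 7 (adjusted p = 1.3e-04, log2 fold change 1.78). Plin4, the perilipin of fat and muscle, moved the other way with 284, 323, 227 and 353 CPM on day 0 and 73.0, 8.98, 17.9 and 53.3 CPM on day 7 (adjusted p = 6.7e-05, log2 fold change -2.94).

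Proteases and their inhibitors split evenly. Of 42 listed genes 32 were tested, and 9 of these were higher and 9 lower, with a median log2 fold change of 0.43. Procr, the endothelial protein C receptor, had 40.2, 39.4, 62.6 and 43.3 CPM on day 0 and 229.7, 113, 857 and 239 CPM on day 7 (adjusted p = 1.8e-05, log2 fold change 2.95), or 2.03 with day 7 replicate 3 left out. Wfdc1, a secreted protease inhibitor, fell with 205, 283, 376 and 354 CPM on day 0 and 33.8, 16.2, 3.99 and 19.4 CPM on day 7 (adjusted p = 2.0e-06, log2 fold change -4.02), as did the membrane-bound inhibitor Spint2 with 130.3 to 153 CPM on day 0 and 9.97 to 41.0 CPM on day 7 (adjusted p = 1.1e-04, log2 fold change -2.36) and the fibrinogen-like protein Fgl2 with 494, 650.3, 605 and 647 CPM on day 0 and 160.3, 173, 37.9 and 95.3 CPM on day 7 (adjusted p = 3.9e-05, log2 fold change -2.36).

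Part of the ribosomal protein genes rose, by small steps. Of 91 listed genes 82 were tested, and 23 of these were higher and 0 lower, with a median log2 fold change of 0.39. Their share of all counts was 8.81% to 9.85% on day 0 and 12.6% to 13.1% on day 7, so the 2 groups did not overlap. Rpsa, the laminin-receptor ribosomal protein, had 1988, 1873, 1860.2 and 1563 CPM on day 0 and 2984, 3531, 4069 and 3657 CPM on day 7 (adjusted p = 8.1e-04, log2 fold change 0.97). Rplp0, of the stalk, had 1477, 1546, 1180.5 and 1269 CPM on day 0 and 2682, 2559, 2484 and 2538 CPM on day 7 (adjusted p = 0.0016, log2 fold change 0.91). Ribosomal genes have many near-identical pseudogenes, and the assignment of their reads is uncertain. In ribosome biogenesis, where the share of rises was under the 11.3% over all genes, the count was 5 higher and 0 lower among 48 tested of 51 listed (median log2 fold change 0.43), among them Npm1, the nucleolar chaperone, with 256, 244, 344 and 239 CPM on day 0 and 532, 544, 578 and 475 CPM on day 7 (adjusted p = 0.0016, log2 fold change 0.98). Among translation factors and tRNA synthetases, with both shares under those over all genes (11.3% and 8.53%), the count was 5 higher and 3 lower among 60 tested of 61 listed (median log2 fold change 0.24). The abundant elongation factors Eef1a1 and Eef2 had log2 fold changes of 0.24 and 0.12 and did not pass (adjusted p = 0.39 and adjusted p = 0.73).

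The secretory pathway was called in a lower share than all genes in either direction: the count was 6 higher and 2 lower among 72 tested of 73 listed (median log2 fold change 0.20). Sec61b, a subunit of the translocon pore, had 78.9, 159, 265 and 205 CPM on day 0 and 536, 451, 554 and 546 CPM on day 7 (adjusted p = 3.4e-04, log2 fold change 1.56). Sec61g had 290.0 to 460.1 CPM on day 0 and 573 to 719.6 CPM on day 7 (adjusted p = 0.0037, log2 fold change 0.88), whereas the pore gene Sec61a1 had 234 to 399 CPM on day 0 and 397 to 483 CPM on day 7 and did not pass (adjusted p = 0.15, log2 fold change 0.48). For chaperones and disulfide isomerases, at a share of rises close to that over all genes, the count was 4 higher and 1 lower among 36 tested of 37 listed (median log2 fold change 0.25). Fkbp10, which helps collagen fold, rose with 94.5 to 218 CPM on day 0 and 279.6 to 473 CPM on day 7 (adjusted p = 0.0028, log2 fold change 1.17), as did the disulfide isomerase Pdia6 with 160.1 to 198 CPM on day 0 and 321 to 481 CPM on day 7 (adjusted p = 0.0029, log2 fold change 1.22). Hspa5, the master chaperone BiP, had 789 to 1414 CPM on day 0 and 885 to 1143 CPM on day 7 and did not pass (adjusted p = 0.83, log2 fold change -0.15). Among amino acid transport and stress genes the count was 13 higher and 4 lower among 43 tested of 51 listed (median log2 fold change 0.47). Slc43a2, a transporter of branched-chain amino acids, had 4.47, 1.20, 4.47 and 3.94 CPM on day 0 and 55.2, 70.1, 45.8 and 103 CPM on day 7 (adjusted p = 1.2e-05, log2 fold change 4.24). Slc7a8, a transporter of neutral amino acids, had no count on day 0 and a rise of at least 34.2-fold (adjusted p = 4.6e-04). Arg1, arginase, had no count on day 0 and 76.6, 77.3, 73.8 and 8.07 CPM on day 7, a rise of at least 57.8-fold (adjusted p = 0.0022), and its call was lost under DESeq2 (adjusted p = 0.058). Oat, ornithine aminotransferase, which acts on arginase's product, fell with 278, 385, 312 and 501 CPM on day 0 and 128, 149, 138 and 181 CPM on day 7 (adjusted p = 3.1e-04, log2 fold change -1.31).

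In glycolysis and the pentose phosphate path the count was 7 higher and 6 lower among 35 tested of 42 listed (median log2 fold change 0.33). Of the pentose phosphate path, Pgd rose with 69.98, 19.1, 71.5 and 74.8 CPM on day 0 and 246, 262, 183 and 224 CPM on day 7 (adjusted p = 8.3e-04, log2 fold change 1.96) and Taldo1 with 122 to 233 CPM on day 0 and 303 to 506 CPM on day 7 (adjusted p = 0.0018, log2 fold change 1.14). Gapdh had 774 to 928 CPM on day 0 and 749 to 1271 CPM on day 7 (adjusted p = 0.42, log2 fold change 0.30), Pkm had 468 to 607 CPM on day 0 and 510.2 to 778 CPM on day 7 (adjusted p = 0.51, log2 fold change 0.24), and neither passed. The platelet-type phosphofructokinase Pfkp fell with 131 to 198 CPM on day 0 and 51.8 to 77.5 CPM on day 7 (adjusted p = 0.0015, log2 fold change -1.34). For citrate cycle and fatty acid oxidation genes, with both shares under those over all genes, the count was 4 higher and 4 lower among 58 tested of 65 listed (median log2 fold change -0.01, though 0.043 under scaling by total counts), the falls including Acadm and Acadsb, acyl-CoA dehydrogenases, at -1.67 (adjusted p = 0.0062) and -1.59 (adjusted p = 0.0043). For creatine, adenylate and glycogen enzymes the count was 1 higher and 7 lower among 31 tested of 42 listed (median log2 fold change -0.35), the falls including Pygb, glycogen phosphorylase, with 143, 94.4, 113 and 85.3 CPM on day 0 and 24.9, 28.8, 21.9 and 35.5 CPM on day 7 (adjusted p = 0.0019, log2 fold change -1.96). Of respiratory chain subunits the count was 1 higher and 7 lower among 73 tested of 80 listed (median log2 fold change -0.14), led by the complex I subunit Ndufv1 with 180.2, 145, 155 and 147 CPM on day 0 and 69.4, 59.3, 73.8 and 83.9 CPM on day 7 (adjusted p = 0.0026, log2 fold change -1.13), a share of falls close to the 8.53% over all genes.

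Genes of cyclic nucleotide signalling, which relaxes arterial muscle, fell more often than they rose. Of 52 listed genes 42 were tested, and 2 of these were higher and 11 lower, with a median log2 fold change of -0.70, and the members summed to 4218, 4035, 4189.8 and 4355 CPM on day 0 and 1677, 1459, 1613 and 2225 CPM on day 7. Adcy5, an adenylyl cyclase, had 780.2, 641, 626 and 765 CPM on day 0 and 46.3, 12.6, 21.9 and 111 CPM on day 7. For Adcy5 this was a log2 fold change of -3.85 ± 0.47 (SE, adjusted p = 2.4e-06) or -4.70 with day 7 replicate 4 left out. Npr1, the receptor of atrial natriuretic peptide, had 341, 356, 298 and 270.3 CPM on day 0 and 39.2, 37.7, 61.8 and 95.3 CPM on day 7. For Npr1 this was a log2 fold change of -2.43 ± 0.32 (SE, adjusted p = 6.6e-06). Gucy1b1, the heme-binding subunit through which nitric oxide makes cyclic GMP, had 124, 92.05, 93.9 and 252 CPM on day 0 and 17.8, 3.59, 7.97 and 12.9 CPM on day 7. For Gucy1b1 this was a log2 fold change of -3.70 ± 0.56 (SE, adjusted p = 3.2e-05). Irag1, the target by which cyclic GMP kinase quiets calcium release, had 285 to 350.3 CPM on day 0 and 15.9 to 119 CPM on day 7 (adjusted p = 1.1e-04, log2 fold change -2.54), or -3.27 with day 7 replicate 4 left out. Prkaca, the catalytic subunit of protein kinase A, had 214 to 274 CPM on day 0 and 95.2 to 209.9 CPM on day 7 without overlap, and did not pass the test (adjusted p = 0.057, log2 fold change -0.68).

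Receptors of vasoactive hormones were few in number above the filter. Of 44 listed genes 13 were tested, and 0 of these were higher and 4 lower, with a median log2 fold change of -0.49, and they summed to 968 to 1046 CPM on day 0 and 301 to 476 CPM on day 7. Npy1r, the neuropeptide Y receptor of sympathetic vasoconstriction, had 98.3, 186, 236 and 312 CPM on day 0 and 10.7, 27.0, 25.9 and 40.4 CPM on day 7. For Npy1r this was a log2 fold change of -2.99 ± 0.51 (SE, adjusted p = 1.3e-04). Ramp1, a subunit of the vasodilator receptor of calcitonin gene-related peptide, had 353, 356, 320.5 and 379 CPM on day 0 and 44.5, 10.8, 3.99 and 77.5 CPM on day 7. For Ramp1 this was a log2 fold change of -3.33 ± 0.51 (SE, adjusted p = 3.5e-05) or -4.13 with day 7 replicate 4 left out. In both genes every day 7 library was under every day 0 library. For G proteins and RGS proteins the count was 7 higher and 3 lower among 37 tested of 44 listed (median log2 fold change 0.22). Rgs4, which shortens signals of Gq and Gi, had 53.6, 123, 50.7 and 142 CPM on day 0 and 7.12, 7.19, 1.99 and 12.9 CPM on day 7 (adjusted p = 1.0e-04, log2 fold change -3.60). Gnai1 had 70.1 to 123 CPM on day 0 and 12.6 to 29.1 CPM on day 7 (adjusted p = 1.4e-04, log2 fold change -2.19). Rgs19 rose with 0 to 23.6 CPM on day 0 and 46.3 to 66.2 CPM on day 7 (adjusted p = 0.0078, log2 fold change 2.10), as did Gpsm3, a regulator of Gi subunits, with 0 to 28.7 CPM on day 0 and 81.9 to 147 CPM on day 7 (adjusted p = 0.0037, log2 fold change 2.74).

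Ion channel and pump genes fell more often than they rose. Of 69 listed genes 56 were tested, and 9 of these were higher and 15 lower, with a median log2 fold change of -0.35. Kcnab1, a beta subunit of voltage-gated potassium channels, had 189 to 350.3 CPM on day 0 and 0 to 35.5 CPM on day 7 (adjusted p = 3.2e-05, log2 fold change -4.04), or -5.11 with day 7 replicate 4 left out. Cacna2d1, an auxiliary calcium channel subunit, had 127, 88.5, 119 and 97.1 CPM on day 0 and 17.8, 50.3, 11.96 and 48.4 CPM on day 7 (adjusted p = 7.2e-04, log2 fold change -1.73). Kcnn4, the calcium-activated potassium channel of dividing and blood cells, rose with 0, 13.2, 10.4 and 9.19 CPM on day 0 and 89.0, 53.9, 85.7 and 61.3 CPM on day 7 (adjusted p = 7.9e-04, log2 fold change 3.09), and Fxyd5, a regulator of the sodium pump, with 179, 166, 229.5 and 179.8 CPM on day 0 and 718, 588, 931 and 576 CPM on day 7 (adjusted p = 4.2e-06, log2 fold change 1.9).

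Circadian genes were called lower at a share of 22.7%, against 8.53% over all genes, and the number of falls depended on the tool. Of 26 listed genes 22 were tested, and 1 of these was higher and 5 lower, with a median log2 fold change of -0.78. DESeq2 called 2 higher and 6 lower, whereas limma voom called 2 higher and 2 lower. Nr1d1, or REV-ERB alpha, a repressor in the clock loop, had 150.4, 233, 171 and 218 CPM on day 0 and 21.4, 17.97, 11.96 and 33.9 CPM on day 7. For Nr1d1 this was a log2 fold change of -3.15 ± 0.43 (SE, adjusted p = 1.0e-05). The clock times of tissue collection are not given in the sources used here. Nuclear receptors and glucocorticoid-responsive genes fell more often than they rose, and the count was 1 higher and 6 lower among 24 tested of 40 listed (median log2 fold change -0.49). Both thyroid hormone receptor genes fell, Thra with 398, 307, 236 and 241 CPM on day 0 and 57.0, 46.7, 47.8 and 92.02 CPM on day 7 (adjusted p = 1.2e-05, log2 fold change -2.27) and Thrb with 152, 68.1, 95.4 and 69.6 CPM on day 0 and 8.90, 16.2, 21.9 and 8.07 CPM on day 7 (adjusted p = 8.6e-05, log2 fold change -2.80). Thra and Nr1d1 lie tail to tail with overlapping 3′ ends on opposite strands, and without knowledge of the strand used in counting their reads cannot be told apart. Klf9, a target of glucocorticoid and thyroid receptors, had 159, 236, 218 and 193 CPM on day 0 and 16.03, 12.6, 29.9 and 33.9 CPM on day 7 (adjusted p = 2.5e-05, log2 fold change -3.11). Nr2f2, or COUP-TFII, had 50.2 to 85.0 CPM on day 0 and 5.34 to 21.9 CPM on day 7 (adjusted p = 9.7e-04, log2 fold change -2.13).

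Transcription factors that shape artery and mesenchyme fell more often than they rose. Of 102 listed genes 78 were tested, and 7 of these were higher and 21 lower, with a median log2 fold change of -0.54. Osr1, a mesenchymal zinc finger, had 335, 229.5, 267 and 224 CPM on day 0 and 57.0, 53.9, 13.95 and 58.1 CPM on day 7 (adjusted p = 3.6e-04, log2 fold change -2.51). Tead3, a partner of YAP, had 50.6 to 125 CPM on day 0 and 14.5 to 27.0 CPM on day 7 (adjusted p = 2.3e-04, log2 fold change -2.15). Heyl, a Notch target of arteries, had 197 to 262 CPM on day 0 and 8.98 to 82.3 CPM on day 7 (adjusted p = 4.8e-05, log2 fold change -2.73), or -3.68 with day 7 replicate 4 left out. Id2, an inhibitor of basic helix-loop-helix factors, had 82.0 to 232 CPM on day 0 and 24.2 to 75.8 CPM on day 7 (adjusted p = 0.0026, log2 fold change -1.71). Sox4, a factor of progenitor cells, rose with 35.7, 34.7, 41.7 and 9.19 CPM on day 0 and 132, 194, 161 and 165 CPM on day 7. For Sox4 this was a log2 fold change of 2.42 ± 0.36 (SE, adjusted p = 2.7e-05). Among immediate early and heat shock genes the count was 7 higher and 10 lower among 49 tested of 50 listed (median log2 fold change -0.12, though 0.005 under limma voom). Junb rose with 14.9, 29.9, 26.8 and 24.9 CPM on day 0 and 148, 289, 169 and 74.3 CPM on day 7 (adjusted p = 1.7e-04, log2 fold change 2.80), and Ccn1 with 238, 212, 250.4 and 322 CPM on day 0 and 248, 697, 1118 and 1455 CPM on day 7 (adjusted p = 0.0011, log2 fold change 1.78), where replicate 1 of day 7 lay within the day 0 range. Small heat shock proteins, chaperones of the cytoskeleton among other clients, fell in 5 of 6 tested Hspb genes, for example Hspb8 with 345, 244, 329 and 228 CPM on day 0 and 81.9, 80.9, 85.7 and 161 CPM on day 7 (adjusted p = 3.2e-04, log2 fold change -1.48) and Hspb7 with 183 to 204 CPM on day 0 and 21.6 to 74.3 CPM on day 7 (adjusted p = 2.4e-04, log2 fold change -2.16). Hspa8 had 2001 to 3252 CPM on day 0 and 1793 to 2339.7 CPM on day 7 and did not pass (adjusted p = 0.56, log2 fold change -0.38). Of PDZ-LIM genes, 4 of 6 tested fell, among them Pdlim5 with 192 to 244 CPM on day 0 and 56.5 to 106 CPM on day 7 (adjusted p = 0.0019, log2 fold change -1.39).

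Adhesion and guidance genes moved in both directions. Of 48 listed genes 41 were tested, and 12 of these were higher and 9 lower, with a median log2 fold change of 0.58. Cd44, the hyaluronan receptor, had 38.7, 44.2, 11.9 and 42.0 CPM on day 0 and 224, 343, 235 and 131 CPM on day 7. For Cd44 this was a log2 fold change of 2.75 ± 0.41 (SE, adjusted p = 2.5e-05). Cdh6, a type II cadherin, had 141, 121, 143 and 167 CPM on day 0 and 21.4, 17.97, 13.95 and 22.6 CPM on day 7 (adjusted p = 3.5e-05, log2 fold change -2.89). Pkp4, a plakophilin-type linker of cadherins, had 259 to 406 CPM on day 0 and 35.9 to 78.3 CPM on day 7 (adjusted p = 5.2e-06, log2 fold change -2.60). For semaphorins, ephrins, Slits and netrins the count was 11 higher and 9 lower among 43 tested of 56 listed (median log2 fold change 0.47). Ntn1, netrin-1, had 419.9, 269, 227 and 238 CPM on day 0 and 55.2, 35.9, 21.9 and 107 CPM on day 7 (adjusted p = 1.1e-04, log2 fold change -2.37), and 3 secreted class 3 semaphorins fell, Sema3b, Sema3c and Sema3d, at -2.04, -3.27 and -3.44 (adjusted p = 0.0015, adjusted p = 2.6e-04 and adjusted p = 0.0022). On the receptor side, Plxnb2, a receptor of class 4 semaphorins, rose with 118 to 138 CPM on day 0 and 223 to 307 CPM on day 7 (adjusted p = 0.0012, log2 fold change 1.13), and Unc5b, a netrin receptor, with 11.9 to 22.3 CPM on day 0 and 37.4 to 102 CPM on day 7 (adjusted p = 0.0011, log2 fold change 1.77).

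Secreted growth factor genes divided in the same way, and 9 of the 52 members tested (74 listed) were higher and 11 were lower, with a median log2 fold change of 0.07. Metrnl, a secreted meteorin-like factor, rose with 5.25 to 19.4 CPM on day 0 and 45.2 to 98.8 CPM on day 7 (adjusted p = 9.9e-05, log2 fold change 2.68). Tgfbi, a matrix-bound product induced by transforming growth factor beta, rose with 204, 178, 162 and 210.0 CPM on day 0 and 1013, 816, 536 and 378 CPM on day 7 (adjusted p = 1.8e-04, log2 fold change 1.86). Fstl3, an activin antagonist, had 253, 309.6, 331 and 335 CPM on day 0 and 60.5, 46.7, 31.9 and 109.8 CPM on day 7. For Fstl3 this was a log2 fold change of -2.29 ± 0.33 (SE, adjusted p = 1.5e-05). The neurotrophin Ntf3 had 155, 49.0, 59.6 and 113 CPM on day 0 and 5.34, 0, 9.97 and 12.9 CPM on day 7 (adjusted p = 2.7e-04, log2 fold change -3.69). Insulin-like growth factor binding proteins fell in 4 of 6 tested genes, for example Igfbp4 with 925, 861, 589 and 717 CPM on day 0 and 207, 316, 221 and 302 CPM on day 7 (adjusted p = 2.0e-05, log2 fold change -1.56). Igfbp3 moved against its family with 8.93, 0, 0 and 0 CPM on day 0 and 94.4, 82.7, 255 and 829.8 CPM on day 7. For Igfbp3 this was a log2 fold change of 7.13 ± 1.13 (SE, adjusted p = 5.8e-05), or at least 239-fold with day 0 replicate 1 left out and 5.97 with day 7 replicate 4 left out. Igfbp3 was highest in replicate 4 of day 7. Igfbp7, the binding protein with the highest CPM, had 3901, 4836, 4049.7 and 5455 CPM on day 0 and 2209.8, 1026, 546 and 2518 CPM on day 7 (adjusted p = 0.0032, log2 fold change -1.53). Among imprinted genes, with both shares close to those over all genes (11.3% and 8.53%), the count was 2 higher and 1 lower among 15 tested of 35 listed (median log2 fold change -0.51). Of these, Igf2r, the receptor that clears insulin-like growth factor 2, had 43.2, 55.0, 26.8 and 55.1 CPM on day 0 and 103, 117, 81.7 and 96.9 CPM on day 7 (adjusted p = 0.005, log2 fold change 1.14).

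Within several families 1 gene rose while a related gene fell. These pairs were chosen after their values were seen and are a description. Lcp1 and Pls3, Nckap1l and Nckap1, and Ccnd1 and Ccnd2 are given above. The lactate dehydrogenase chain Ldha, which favours lactate formation, rose with 137, 117, 173 and 143 CPM on day 0 and 621, 397, 494 and 181 CPM on day 7. For Ldha this was a log2 fold change of 1.57 ± 0.31 (SE, adjusted p = 7.0e-04). Ldhb, which favours pyruvate, fell with 90.8, 145, 65.6 and 106 CPM on day 0 and 24.9, 17.97, 7.97 and 16.1 CPM on day 7. For Ldhb this was a log2 fold change of -2.58 ± 0.42 (SE, adjusted p = 7.9e-05). Eif4a1, the main helicase of translation initiation, had 475, 414, 502 and 375 CPM on day 0 and 935, 927, 1001 and 1296 CPM on day 7 (adjusted p = 3.5e-04, log2 fold change 1.24), and its paralogue Eif4a2 had 339, 317, 349 and 350.4 CPM on day 0 and 214, 203, 167 and 179 CPM on day 7 (adjusted p = 0.0047, log2 fold change -0.83). The alternative SWI/SNF motors went opposite ways, Smarca4 (BRG1) with 53.6, 29.9, 83.5 and 59.1 CPM on day 0 and 89.0, 135, 128 and 144 CPM on day 7 (adjusted p = 0.0084, log2 fold change 1.13) and Smarca2 (BRM) with 52.1, 82.5, 56.6 and 61.7 CPM on day 0 and 33.8, 21.6, 23.9 and 9.69 CPM on day 7 (adjusted p = 0.0099, log2 fold change -1.51), although over the whole complex, with both shares under those over all genes, the count was 2 higher and 2 lower among 26 tested of 30 listed (median log2 fold change -0.07, though 0.021 under limma voom). Of the chloride intracellular channel proteins, Clic1 had 197, 102, 96.9 and 87.9 CPM on day 0 and 296, 352, 520.3 and 505 CPM on day 7 (adjusted p = 3.6e-04, log2 fold change 1.79). Clic4 had 694, 721, 811 and 1003 CPM on day 0 and 369, 356, 335 and 365 CPM on day 7 (adjusted p = 4.8e-04, log2 fold change -1.18). In each of these pairs the day 7 libraries of both genes lay outside the range of their day 0 libraries.

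**Figure D5:**
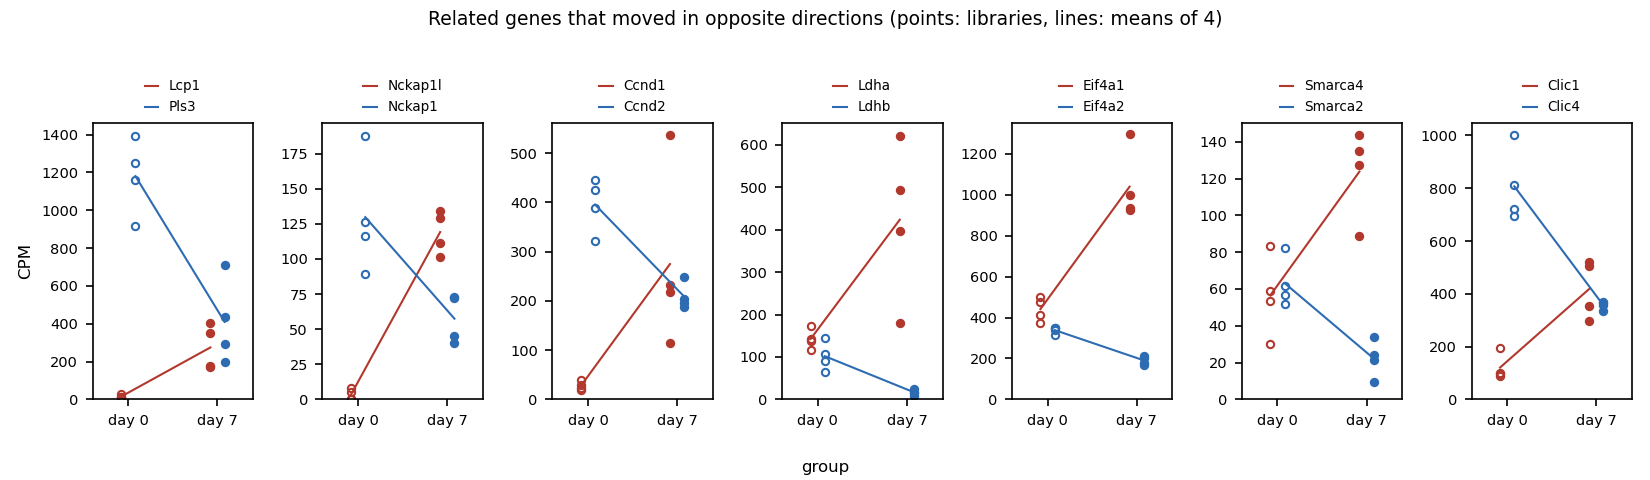
CPM in each day 0 library (open points) and day 7 library (filled points) for 7 pairs of related genes, with lines joining the means of 4 libraries, red for the gene that rose and blue for the gene that fell. Ldha rose from 117 to 173 CPM to 181 to 621 CPM, while Ldhb fell from 65.6 to 145 CPM to 7.97 to 24.9 CPM.

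Of 201 genes named here, 119 have a gene model on the opposite strand over their exons, a named gene for 40 of them, and strand use in counting is not stated. Beside Nr1d1 and Thra, the named ones include Coro1a with Bola2, Ube2c with Tnnc2, Cdc20 with Elovl1, Junb with Prdx2, Psmb9 with Tap1, Myom1 with Myl12a and Smarcd3 with Chpf2. Unnamed models with a Gm or Rik symbol made up 15 of the genes called higher and 8 of those called lower.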

How the data were processed

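Carotid tissue was collected by laser microdissection, and the 3′ ends of its RNA were sequenced with molecular identifiers. The deposited values are estimated counts per gene, which the authors made with Salmon 1.9.0 against the mm39 transcriptome after duplicates of a molecular identifier had been removed. Their DESeq2 1.36.0 comparisons and normalised values were not used. The estimated counts were rounded to whole numbers and genes were kept by filterByExpr with the day as group, which left 10312 of 35655. Library totals over all days were 440675 counts or more, and these totals limit what can be seen of genes with few counts.

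Days 0 and 7 were compared by edgeR 4.0.16 (R 4.3.3) with its quasi-likelihood test and TMM scaling. All 18 libraries entered the fit with the day as the only factor, so that 5 days shared 1 estimate of the spread. The numbers that 3 day 0 libraries share with 3 day 21 libraries were not modelled (residual correlations of 0.0554, -0.00669 and 0.0423), and p-values were adjusted by Benjamini-Hochberg over all genes tested. A gene was called at an adjusted p under 0.05. The scripts were tested on simulated data.

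Gene lists were described by counts and medians, without a test. The lists, families and questions were chosen with earlier results of these data known. Named genes are the 15 with the smallest p in each direction, outside the contractile, macrophage and matrix lists and without overlap of groups, and, per list, up to 4 called members in each direction and up to 2 abundant members not called. Exceptions are stated. Some genes and 1 gene list are not reported here. Promoters came from a RefSeq table of GRCm38.p6 and gene positions from GENCODE for GRCm39, and the 2 builds were not mixed. Of the 10312 genes, 8168 had a promoter in that table and 6468 had exactly 1. Alternatives were DESeq2 1.42.0, limma 3.58.1 voom, other scalings, filters and thresholds, counts thinned to the smallest library, a fit of days 0 and 7 alone with and without a replicate block, and fits without each library. A fit without day 21 was chosen after seeing the data.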

Additional observations from a re-analysis of the deposited data

Results flagged for a closer look

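In 454 groups of 4 libraries, each the level of a named gene with at least 20 counts or the sum of a list, 27 had 1 library whose gap to the nearest of the other 3, divided by the range of the group, exceeded Dixon's critical value. Chance flags about 1 group in 20. Values below are CPM of the library that stood apart.

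On day 7, replicate 4 stood apart in 4 of these groups. It was the lowest for Arg1 (8.07) and C3ar1 (66.2) and the highest for Clec3b (46.8) and Hspb8 (161). Replicate 2 was the highest for Lamp1 (766), Lgmn (967) and Tnnc2 (23.4), a gene that overlaps Ube2c. Replicate 3 was the highest for Procr (857) and for the sum of the fibrinolysis and serpin list (7093), and the lowest for Osr1 (14.0).

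On day 0, replicate 1 was the highest for Clec3b (453), Clic1 (197), Cxcl12 (101.2) and Hmga1b (115), and for the sums of guidance genes (2457), macrophage genes (4596) and matrix genes (68143), while it was the lowest for Unc5b (11.9). Replicate 3 was the highest for Kcnab1 (350.3), Ms4a6c (40.2), Npm1 (344) and Procr (62.6), and the lowest for Cd44 (11.9). Replicate 4 was the highest for Prdx6 (136) and for the sum of mast cell markers (3.94, the other 3 libraries having no count) and the lowest for Sirpa (11.8), and replicate 2 was the lowest for Pgd (19.1).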

How the results depend on the processing

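Counts of calls and each gene named here were recomputed under 21 alternatives, and no called gene reversed. List medians were recomputed only under the other scalings, DESeq2 and limma voom, and those that changed sign are given with the lists. Marker sums and promoter shares were not recomputed. After the data were seen, a fit without day 21, of which 3 libraries share a day 0 number, was added: 992 genes were higher, 830 lower and 1822 changed. At an adjusted p under 0.01, 1243 genes changed, 713 higher and 530 lower, and families numbered 5 in place of 11. Genes called in any functional list, each counted once, numbered 414 in place of 625. The contractile, macrophage, matrix and cell marker lists are not in that number. Tested against a log2 fold change of 1, 914 changed, 581 higher and 333 lower, with 319 genes called in the functional lists and 4 families. Families numbered 6 when only days 0 and 7 entered the fit and 5 under the stricter filter, which also tested fewer genes (8200 and 6726). Without 1 library, 851 to 1089 genes were higher, 704 to 910 lower and 1556 to 1999 changed, and families ranged from 5 without day 7 replicate 2, and 6 without day 0 replicate 2 or day 7 replicate 1, to 10. DESeq2 called 1507 higher and 947 lower, and limma voom 1337 and 838. Rises made up 51.9% to 63.6% of calls against 56.9%, and scalings moved the median log2 fold change of all genes by 0.049 or less. Of 170 called genes named here, 125 kept their call throughout, and 2, Arg1 and Psmb9, lost it other than at the 2 stricter thresholds. Of 2436 recomputed list counts, 357 moved by more than 1.5 times. Libraries with the same replicate number had residual correlations of -0.041, 0.0088, 0.031 and -0.029. Values near 0 over all genes cannot show whether these numbers pair the libraries. Day 0 and day 21 libraries with a shared label number gave 0.0554, -0.00669 and 0.0423. With a replicate block on days 0 and 7 alone, 745 genes were higher, 663 lower and 1408 in all, with 4 families. The causes of these shifts were not tested. Depth limits genes with few counts: no value under 1.02 CPM on day 0 or 1.34 CPM on day 7, as a mean of the group, can be told from 0.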
